A study of Mus musculus with 6 samples.

Results

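Single-exon coding loci are the regions of the assembled transcriptome whose transcripts match an annotated protein-coding transcript and hold no intron. They were taken from the authors' merged assembly as loci of the count table with at least 1 transcript that matches an annotated one and carries a protein identifier, where every transcript has exactly 1 exon. Chromosomes X and Y and 1 stretch of chromosome 13 were left out. All positions are on mm9. The rule gave 287 loci of the 14321 coding loci and 18420 loci in the table, and it left out 19 such loci on chromosome X and 3 in the stretch on chromosome 13. The assembly outside the left-out parts held 1861 single-exon coding loci, and only these 287 are in the count table, where the lowest mean is 4.62 normalized counts. Levels, distances and runs below therefore describe loci of the table, not all single-exon coding loci. The coding loci with introns on the same chromosomes, 13467 in number, served for comparison. RNA came from 2 stages with 3 libraries each: undifferentiated mouse embryonic stem (ES) cells at day 0, and embryoid bodies at day 6 of cardiac differentiation, which are clumps of differentiating cells grown here from hanging drops. All cells were of 1 line with an Nkx2.5-EmGFP BAC reporter, a green fluorescent marker driven by a gene of early heart cells. The growth protocol names this line as 129/OlaHsd, subline E14Tg2A.4, while the strain label reads C57BL/6J, and these disagree. The cells were kept undifferentiated with the cytokine LIF on feeder fibroblasts or on gelatin, and the labels do not tell which support each library had. The design text calls the replicates biological. Where they do not stem from separate cultures, the p-values measure only the spread between these libraries.

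Most mammalian coding genes are split by introns that are spliced out of the transcript, and genes with a single exon make mRNA without this step. Known families without introns include the histone genes used in DNA replication, which lie in clusters and whose mRNAs normally end in a stem-loop rather than a poly(A) tail. Many receptors coupled to G proteins, the clustered protocadherins of the beta group, several families of transcription factors, and copies of genes that arose by reverse transcription of spliced mRNA also lack introns. The libraries here were made from poly(A)-selected RNA. Neither file pairs a locus with a gene name, so the loci are given by identifier, position and exon length, and which of them belong to these families is not stated. For the same reason the labelled cell type was not checked against marker genes.

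Each library held 106306699 to 114092201 counted reads. Values are normalized counts, which are reads divided by 1 size factor per library. Undifferentiated cells varied more between replicates than embryoid bodies, and this touched the single-exon loci as well. The standard deviation (SD) of the log2 level was larger at day 0 than at day 6 for 79.2% of the 250 tested single-exon loci and for 87.1% of the tested multi-exon coding loci. Day 0 replicate 2 was the highest library of its stage for 44% of the tested single-exon loci, replicate 1 for 31.6% and replicate 3 for 24.4%. Among multi-exon loci these shares were 36.1%, 37.9% and 26%.

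Most of the 287 single-exon coding loci were expressed at low levels, and a handful were among the high loci of the cell. Per exonic kilobase, the scale on which loci of different length can be compared, their median level was 28.9 normalized counts, with quartiles at 8.43 and 129. The median of the multi-exon coding loci was 212, with quartiles at 28.9 and 946. Above that median lay 59 single-exon loci, or 20.6%. The range ran from 0.557 to 116442 normalized counts per kilobase. A mean of at least 1000 normalized counts was reached by 48 of the 287 loci (16.7%), against 59.1% of the multi-exon loci, and 17 had no read in at least 1 library. The exons had a median of 2528 nt, from 312 to 35124 nt, while the exonic bases of multi-exon loci had a median of 7348 nt over a median of 10 exons. Exon lengths here and below are the exonic bases of a locus merged over all its transcript models. Where a locus has more than 1 model, no single exon need be that long. Of the 287 loci, 140 lay on the plus and 147 on the minus strand, 198 had 1 transcript model and 89 had more.

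**Figure D1:**
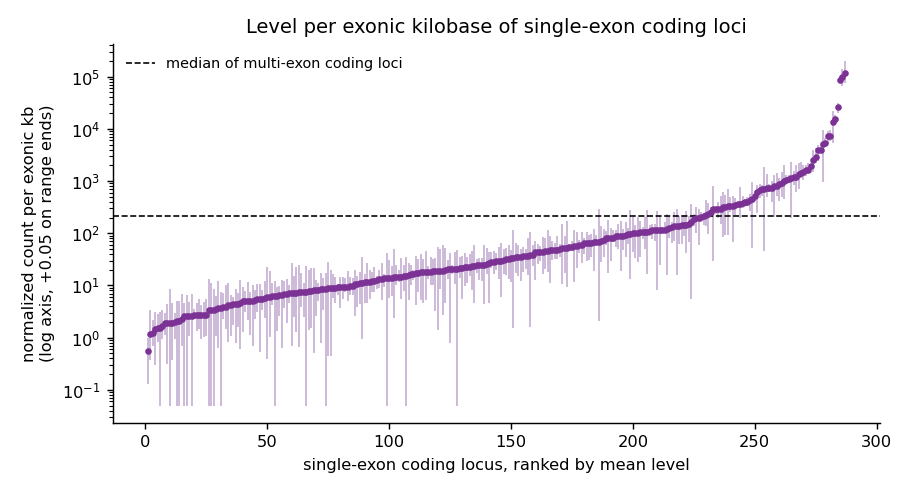
Mean level of the 287 single-exon coding loci in normalized counts per exonic kilobase (log axis), ranked, with lines from the lowest to the highest of the 6 libraries (ends raised slightly so that values of 0 can be drawn). The dashed line is the median of multi-exon coding loci at 212, and 59 single-exon loci lie above it.

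The counts of the group sat in a few loci. The 3 most abundant held 67.2, 73.5 and 69.1% of all counts in single-exon coding loci in day 0 replicates 1, 2 and 3, and 61.1, 62.6 and 61% at day 6. All single-exon coding loci together took 0.662, 0.828 and 0.722% of the normalized counts at day 0 and 0.566, 0.621 and 0.575% at day 6. The stages did not overlap, with means of 0.737% ± 0.084 before and 0.587% ± 0.029 after differentiation (SD, n = 3 each). Without the 3 most abundant loci the shares were 0.220% ± 0.003 and 0.225% ± 0.006 and the stages overlapped, so the lower total at day 6 rested on those 3.

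The most abundant locus, XLOC_027409, is an exon of 2142 nt on chromosome 5 at 5781495 to 5783636, minus strand (mm9). It had 158531, 422593 and 283090 normalized counts in the day 0 replicates and 206530, 244738 and 181026 in the day 6 replicates. The day 0 libraries spanned the day 6 ones, and the locus had an SD of 0.71 on the log2 scale at day 0 and of 0.22 at day 6. Its log2 change was -0.35 (SE 0.32, limma adjusted p = 0.408). It passed the test without day 0 replicate 1, at -0.73 (limma adjusted p = 0.0218).

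XLOC_038400 lies on the mitochondrial genome at 9876 to 11542, plus strand, with 1667 nt. It stood at 144774, 168356 and 154835 normalized counts at day 0 and at 129229, 138754 and 139619 at day 6. All day 6 values were below the day 0 values, yet the change of -0.20 (SE 0.12, limma adjusted p = 0.228) did not pass the test. XLOC_024642, 957 nt on chromosome 4 at 125181289 to 125182245, plus strand, had 135272, 125975 and 90330 normalized counts at day 0. At day 6 it had 62935, 71148 and 72052, so that the stages were separate. It fell by 0.75 in log2 units (SE 0.17, limma adjusted p = 0.00872). This exon lies within the span of the multi-exon locus XLOC_024641 on the same strand, whose log2 change of -0.49 did not pass the test. Per kilobase these 3 loci were also the highest of the group, at 116442, 87539 and 97128 normalized counts.

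XLOC_009351, on chromosome 13 at 58227240 to 58229917, minus strand, was at 34755, 41038 and 31697 normalized counts at day 0 and at 47236, 49961 and 42838 at day 6. The stages did not overlap, and the log2 change of 0.39 (SE 0.14, limma adjusted p = 0.0564) missed the threshold of 0.05. It passed with quantile normalization (0.37, limma adjusted p = 0.0262). It passed also once day 0 replicate 2 was left out (0.49, limma adjusted p = 0.00824). XLOC_002470, on chromosome 10 at 61533770 to 61535319, plus strand, was the steadiest of the 5 within day 0 and changed the most. It had 33064, 30740 and 33315 normalized counts in undifferentiated cells and 8296, 9472 and 9180 in embryoid bodies. This 3.6-fold fall was -1.85 in log2 units (SE 0.12, limma adjusted p = 2.5e-05).

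Between the stages, 106 of the 250 tested single-exon coding loci changed (42.4%), against 44.0% of all 17145 tested loci of the table, so their share lay near the background. Of the 106, 48 were higher in embryoid bodies, where the background of rises was 22.2% of tested loci, and 58 were lower, where the background of falls was 21.8%. Calls used limma over all tested loci, with a Benjamini-Hochberg adjusted p under 0.05. Of the 250, 42 called rises and 55 called falls reached 2-fold, a larger share in all than the 31.8% of all tested loci in either direction. This share is not matched for level, and the single-exon loci were mostly low. The stages did not overlap at 143 loci, or 57.2%, where the background was 57.3%. Of the tested multi-exon coding loci 43.7% were called, 23.5% higher and 20.2% lower, 29.1% were called with at least 2-fold, and 57.1% had stages that did not overlap. In RNA from whole cultures, fewer cells of a type and less RNA per cell cannot be told apart. The other 37 loci did not reach 10 normalized counts in 3 libraries and were not tested, with means from 5.19 to 17.8. Of the tested loci, 19 reached 10 counts in 1 stage only, which the filter lets through because they differ, and all 19 of these were called. Outside that group, 75 called loci had at least 10 counts in every library. Loci that reached 10 in only some libraries of 1 stage can also pass because of the other stage. How many did was not counted. For 47 loci that were not called, the 95% interval of the change lay within 2-fold in either direction. For the other uncalled loci the interval reached 2-fold in at least 1 direction.

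**Figure D2:**
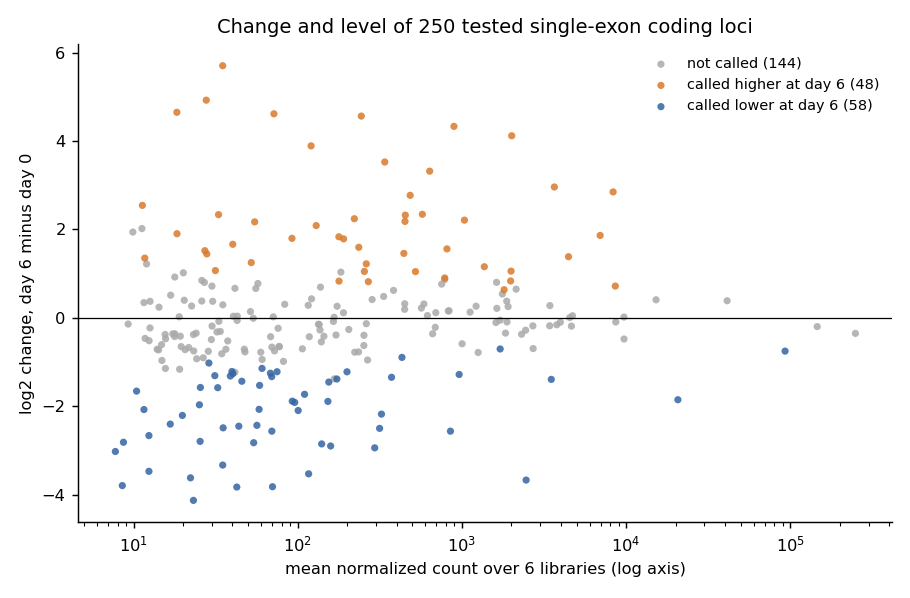
Log2 change from day 0 to day 6 against mean normalized count (log axis) for the 250 tested single-exon coding loci, coloured by the limma call. The 48 called rises reach 5.70 and the 58 called falls reach -4.13 on the log2 scale.

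The called rises had a median of 1.85 on the log2 scale and a median level of 258 normalized counts. The called falls had a median of -2.02 and a median level of 59.6. The largest changes came from loci that were nearly silent at one stage. XLOC_036402, on chromosome 9 at 38016611 to 38019133, plus strand, had 0, 1.04 and 0 normalized counts at day 0 and 48.7, 52.3 and 108 at day 6 (log2 change 5.70, SE 0.52, limma adjusted p = 9.79e-05). XLOC_019413, on chromosome 2 at 87372192 to 87374801, plus strand, had 32.3, 49.7 and 51.9 at day 0 and 3.04, 1.03 and 1.04 at day 6 (log2 change -4.13, SE 0.46, limma adjusted p = 0.000252). Both are among the 19 loci that passed the filter through 1 stage only, XLOC_036402 through day 6 and XLOC_019413 through day 0, so their calls follow in part from how they were let in. They were named after their values were seen, as the ends of the range, and the size of such changes depends on the count of 1 added before taking logarithms.

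The share of called loci was also set beside that of multi-exon loci of like level. These shares are a description with no test, since loci are not replicates, and nothing particular to single-exon loci is read from them. In quintiles of mean level over all tested coding loci, the single-exon loci numbered 137, 67, 28, 12 and 6 from the lowest to the highest. In the lowest quintile, up to 122 normalized counts, 43.8% of single-exon and 50.1% of multi-exon loci were called. In the second, up to 892, the shares were 47.8 and 46.9%, and in the third, up to 3431, they were 28.6 and 44.1%. In the upper 2 quintiles, where only 4 of 12 and 2 of 6 single-exon loci were called, the multi-exon shares were 40.6 and 37.0%. With the multi-exon share weighted to the same spread over quintiles it came to 47.8%, against 42.4% for the single-exon loci, a difference of -5.39 percentage points. Leaving out day 0 replicate 2 brought that difference to -9.41, and leaving out day 0 replicate 3 brought it to -2.48. Among loci with at most 10% of exonic bases in exons of other loci, it was -11.0 points, with 43.1% of 218 single-exon loci called and a weighted multi-exon share of 54.2%.

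The balance of rises and falls differed between levels. In the lowest quintile 18 single-exon loci were called higher and 42 lower, which is 30% rises among calls, against 36.8% in multi-exon loci. Low loci include those that passed the filter through 1 stage only, 12 through day 0 and 7 through day 6, whose direction follows from how they were let in. Run A, given below and mostly of low level, held 8 falls and 0 rises. How far these loci set the balance was not tested. In the second quintile 21 were higher and 11 lower, or 65.6% rises, against 44.3% in multi-exon loci. The third held 5 rises and 3 falls, the fourth 4 rises and no fall among 12 loci, and the highest no rise and 2 falls among 6. In these 3 quintiles rises made up 60.6, 68.6 and 63.4% of the multi-exon calls. The median log2 change of single-exon loci was -0.52 in the lowest and 0.16 in the second quintile, and that of multi-exon loci -0.35 and -0.02.

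The spread between replicates, set beside that of multi-exon loci at like level, was smaller in some quintiles and larger in others. At day 6 the median SD of the log2 level was 0.31, 0.19 and 0.12 for single-exon loci in the first 3 quintiles and 0.33, 0.18 and 0.11 for multi-exon loci. At day 0 it was 0.56, 0.39 and 0.37 against 0.62, 0.48 and 0.34. In the fourth quintile, with 12 single-exon loci, it was 0.35 against 0.28 at day 0 and 0.11 against 0.08 at day 6. In the highest, with 6, it was 0.21 against 0.26 at day 0 and 0.10 against 0.07 at day 6. The medians of the quintiles, weighted by the single-exon loci in each, averaged 0.48 for single-exon and 0.52 for multi-exon loci at day 0, a difference of -0.05. The sign of this day 0 difference turned with quantile normalization (0.03), and it was -0.11 without day 0 replicate 3. The same average for the log2 change was -0.24 for single-exon and -0.17 for multi-exon loci, and the difference of -0.07 turned to 0.14 without day 0 replicate 2.

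**Figure D3:**
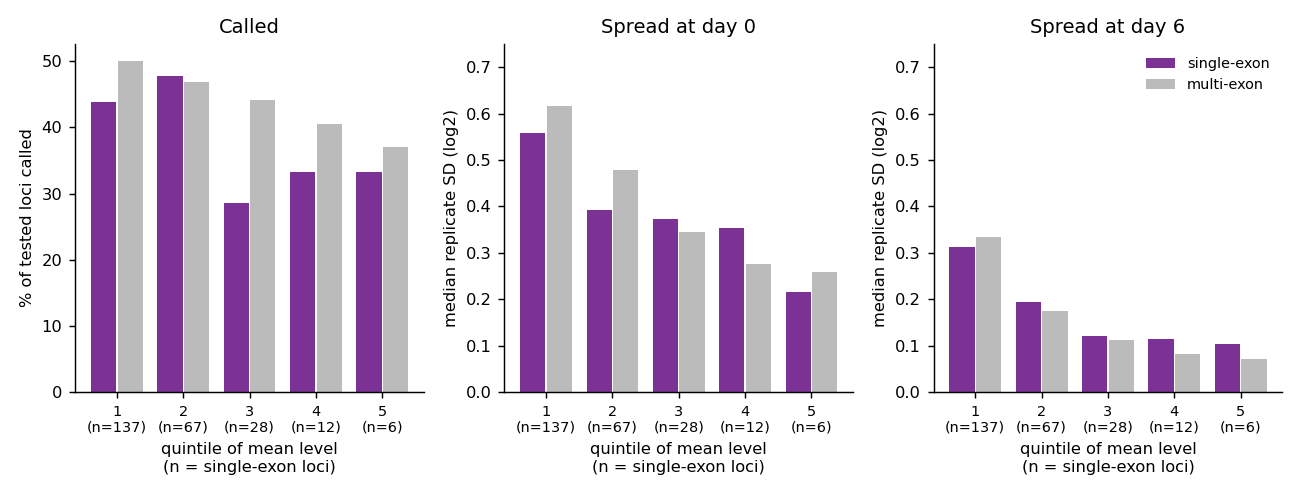
Percentage of tested loci called and median SD of the log2 level between replicates at day 0 and day 6, for single-exon and multi-exon coding loci in quintiles of mean level from low (1) to high (5), with the number of single-exon loci under each pair of bars. The called share differs most in the third quintile, at 28.6 against 44.1%, and both spreads shrink with level in both classes.

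The rises and falls given one by one had no overlap between stages, no library under 10 normalized counts, a mean of 200 or more in the higher stage and at most 10% shared exonic bases, conditions met by 26 rises and 19 falls. The 6 largest rises of these ran from 7.11-fold to 17.2-fold. XLOC_008605, an exon of 2805 nt on chromosome 13 at 31650039 to 31652843, plus strand, had 289, 248 and 128 normalized counts at day 0 and 2596, 3563 and 5241 at day 6. The change was 4.12 in log2 units (SE 0.37, limma adjusted p = 9.54e-05), although the day 6 libraries differed about as widely from each other as the day 0 ones, with SDs of 0.51 and 0.62. XLOC_030087, 5358 nt on chromosome 6 at 53765462 to 53770819, minus strand, went from 29.7, 199 and 90.7 to 1314, 1926 and 1807 normalized counts. Its log2 change was 4.33 (SE 0.60, limma adjusted p = 0.000753), and its day 0 replicates were far apart, with an SD of 1.36.

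XLOC_029955, 2970 nt on chromosome 6 at 30906021 to 30908990, minus strand, rose 10.7-fold, from 87.2, 63.2 and 23.9 to 793, 653 and 413 normalized counts (log2 change 3.52, SE 0.49, limma adjusted p = 0.000784). XLOC_013565, 1416 nt on chromosome 16 at 18776940 to 18778355, plus strand, rose 9.99-fold, from 136, 74.6 and 137 to 1378, 1316 and 777 (3.32, SE 0.35, limma adjusted p = 0.000191). In both, day 6 replicate 3 was the lowest library of its stage and still several times above every day 0 library. XLOC_009369 on chromosome 13, at 60275766 to 60278896, minus strand, also had its lowest day 6 value in replicate 3, at a higher level. It went from 624, 772 and 1133 to 7181, 7343 and 4885 normalized counts, a 7.68-fold rise (2.96, SE 0.27, limma adjusted p = 9.35e-05). The nearest multi-exon coding locus of the count table lies 341 kb away, and distances to loci that are not coding were not measured.

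The most abundant of the 6 was XLOC_031699, 1651 nt on chromosome 7 at 69493163 to 69494813, plus strand. It had 1548, 2136 and 2485 normalized counts in undifferentiated cells and 12500, 15521 and 15835 in embryoid bodies, and it rose 7.11-fold (log2 change 2.85, SE 0.20, limma adjusted p = 3.43e-05). A second single-exon locus 67.7 kb away, XLOC_033013, had a log2 change of 0.25 and did not pass the test.

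The 6 largest falls under the same conditions ran from 5.8-fold to 14.1-fold. XLOC_024624, an exon of 8576 nt on chromosome 4 at 124334889 to 124343464, plus strand, had 1901, 4955 and 6931 normalized counts in undifferentiated cells and 246, 288 and 445 in embryoid bodies. Its log2 change was -3.67 (SE 0.46, limma adjusted p = 0.000467). The day 0 libraries differed from each other by an SD of 0.97, and the lowest of them was still well above the highest day 6 library. XLOC_009174, 831 nt on chromosome 13 at 31038713 to 31039543, minus strand, went from 168, 233 and 244 to 19.3, 13.3 and 20.9 normalized counts (log2 change -3.53, SE 0.33, limma adjusted p = 0.000111). It lies within the span of the multi-exon locus XLOC_009173 on the same strand, whose log2 change was 0.26 and did not pass the test.

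XLOC_012638, 3043 nt on chromosome 15 at 75575674 to 75578716, minus strand, fell 8.22-fold, from 849, 434 and 292 to 84.2, 66.6 and 40.7 normalized counts (log2 change -2.94, SE 0.45, limma adjusted p = 0.00123). A fall of 8.95-fold was found for XLOC_019927, 3022 nt on chromosome 2 at 146047733 to 146050754, plus strand. Its counts of 154, 178 and 524 at day 0 and 28.4, 33.8 and 33.4 at day 6 (-2.90, SE 0.48, limma adjusted p = 0.00171) show that day 0 replicate 3 was the high library. The same library was highest for XLOC_021355, 1311 nt on the same chromosome at 152757634 to 152758944, minus strand, with 170, 201 and 371 against 39.5, 35.9 and 21.9 (-2.85, SE 0.40, limma adjusted p = 0.000805).

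The longest exon of these falls was that of XLOC_013539, 15115 nt on chromosome 16 at 17206733 to 17221847, plus strand. It had 1271, 1335 and 1752 normalized counts at day 0 and 261, 172 and 318 at day 6 (log2 change -2.56, SE 0.29, limma adjusted p = 0.000254), and it was steadier at day 0 than at day 6. All 12 of these rises and falls kept their direction and their call under every alternative run.

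**Figure D4:**
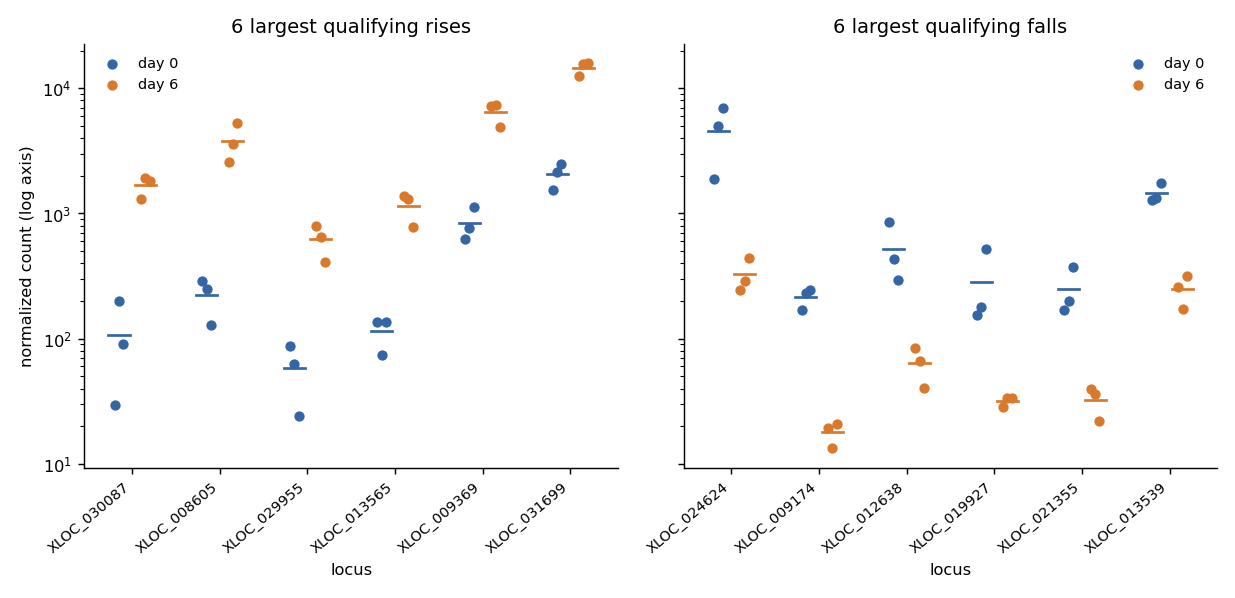
Normalized counts (log axis) of the 6 largest rises and 6 largest falls among single-exon coding loci that met the conditions, with 3 points per stage and a bar at the mean. In each of the 12 loci the stages are separate.

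Among the 45 well-covered loci, meaning those averaging 1000 or more normalized counts with at most 10% shared exonic bases, the widest spread between day 0 replicates was seen at XLOC_024624 and XLOC_027409, given above, and at XLOC_001498. The last, 1341 nt on chromosome 1 at 177907907 to 177909247, minus strand, had 2000, 5278 and 3994 normalized counts at day 0 and 2733, 3499 and 3041 at day 6. Its log2 change was -0.18 (SE 0.33, limma adjusted p = 0.690), and it passed the test only without day 0 replicate 1 (-0.58, limma adjusted p = 0.0338). The multi-exon locus XLOC_001497, in whose span it lies on the same strand, had a log2 change of 4.85 and was called higher.

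The smallest changes in the same set were those of XLOC_024521 on chromosome 4 (108520462 to 108522017, plus strand), XLOC_006788 on chromosome 12 (4788976 to 4790318, plus strand) and XLOC_000136 on chromosome 1 (43245966 to 43246603, plus strand). XLOC_024521 had 3441, 6584 and 3826 normalized counts at day 0 and 4238, 4921 and 4222 at day 6, a log2 change of 0.01 with a 95% interval from -0.56 to 0.57. It lies within the span of XLOC_024520 on the same strand, which rose by 0.91. XLOC_006788 had 6877, 12271 and 10131 at day 0 and 8961, 10754 and 9221 at day 6 (0.02, interval -0.47 to 0.51). XLOC_000136 had 3648, 5979 and 4416 at day 0 and 4558, 5192 and 4501 at day 6 (0.05, interval -0.41 to 0.50). In all 3, the lowest and the highest library were both of day 0, and day 0 replicate 2 was the highest. These intervals exclude a change of 2-fold and leave smaller ones possible.

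Some single-exon coding loci lay in runs along the chromosome. Another single-exon coding locus was found within 100 kb of 57 of the 287 loci (19.9%), and 5.06% of the multi-exon coding loci had a single-exon one within that distance. Runs of at least 3 members with gaps of at most 100 kb numbered 5 and held 35 loci, and 11 pairs and 230 lone loci made up the rest. Of the 5 runs, 3 lay on chromosome 13, which held 33 of the 287 loci, 1 on chromosome 18 and 1 on chromosome 9. The called loci outside these runs numbered 92 of 219 tested (42%), with 46 higher and 46 lower, a split chosen after the data were seen.

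The run with the most loci, here called run A, spans 116 kb of chromosome 13 from 21807632 to 21924027. It holds 13 loci, 6 on the plus and 7 on the minus strand. Of these, 10 have exons under 500 nt, and the length of 9 of the 10 is a multiple of 3. Over all 287 loci 14 exons were under 500 nt and 43.6% of lengths were multiples of 3. The levels were low, with means of 6.89 to 373 normalized counts and 44.9 per exonic kilobase in the median locus. Summed over the run, day 0 libraries had 1044, 919 and 1080 normalized counts and day 6 libraries 470, 397 and 416, so the stages were far apart. A large part of these sums came from a single locus, XLOC_009091, given below. Of 11 tested loci 8 were called lower and none higher, with a median log2 change of -1.26, where 21.8% of all tested loci were lower and the median change over all tested loci was 0.02. All 11 changes were negative, from -3.79 to -0.01. The number of calls in run A was 5 with quantile normalization, which left 10 of 11 changes negative, 5 with unequal spread, and 3 without day 6 replicate 3 (4 without either other day 6 replicate).

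The largest change in run A was that of XLOC_008532, 405 nt at 21903615 to 21904019, plus strand, with 16.6, 19.7 and 14.0 normalized counts at day 0 and 0, 0 and 1.04 at day 6 (log2 change -3.79, SE 0.50, limma adjusted p = 0.000557). With so few reads at day 6 no fold is given. This locus passed the filter through day 0 alone, and it is 1 of the 8 calls of run A. XLOC_008525, another of the 8 (log2 change -2.21), had 23.6, 58.0 and 18.9 at day 0 and 4.06, 10.3 and 4.18 at day 6. It too needed its day 0 values to pass the filter. The locus with the most counts, XLOC_009091 with 8296 nt at 21864436 to 21872731, minus strand, went from 575, 366 and 676 to 212, 173 and 235 (-1.34, SE 0.30, limma adjusted p = 0.00757). In contrast XLOC_008526, 3650 nt at 21826940 to 21830589, plus strand, had 49.7, 41.4 and 71.8 at day 0 and 57.8, 57.4 and 43.8 at day 6, with overlapping stages and a change of -0.01 (SE 0.34, limma adjusted p = 0.987). The shortest exon of all, XLOC_009089 with 312 nt at 21842063 to 21842374, minus strand, was not tested at 3.49, 10.4 and 2.99 against 13.2, 7.18 and 4.18 counts. Over 50% of its bases lie in exons of other loci, which makes its value uncertain. The 1 multi-exon coding locus within the span of run A was also called lower, at -1.11.

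Run B holds 4 loci in 7.78 kb of chromosome 13 from 22127035 to 22134818, and run C holds 3 loci in 10.5 kb, from 23633448 to 23643972. Run C ends 15.7 kb before the stretch that was left out. In run B limma called no locus, while DESeq2 called 1 lower, as did limma without day 0 replicate 1. The 4 changes ran from -0.75 to -0.06 (3 of 4 negative with quantile normalization), and the largest, of XLOC_009100 (387 nt, 22127035 to 22127421, minus strand), was that of 40.13, 37.28 and 12.96 against 22.3, 16.4 and 10.4 normalized counts (limma adjusted p = 0.283). Run C had 1 called locus of 3, XLOC_008564 with 4604 nt at 23635921 to 23640524, plus strand. It had 62.8, 55.9 and 47.9 normalized counts at day 0 and 28.4, 22.6 and 15.7 at day 6 (log2 change -1.31, SE 0.36, limma adjusted p = 0.0179). That call was lost with quantile normalization (-0.99, limma adjusted p = 0.0613), with unequal spread (limma adjusted p = 0.0598), without day 6 replicate 2 (limma adjusted p = 0.0662) and without day 6 replicate 3 (limma adjusted p = 0.0756). Runs A, B and C together had 1637, 1801 and 1710 normalized counts at day 0 and 938, 822 and 832 at day 6, or 1716 ± 82.4 and 864 ± 64.2 (SD, n = 3 each). Of their 18 tested loci 9 were called lower and 0 higher, where falls made up 21.8% of all tested loci and 31.6% of multi-exon coding loci in the lowest quintile of level.

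The run on chromosome 18 holds 11 loci, all on the plus strand, over 194 kb from 37467109 to 37661365. Their exons are of like length, 2319 to 4714 nt, and their levels were the lowest of the 5 runs, at 6.19 normalized counts per exonic kilobase in the median locus. Of 9 tested loci 2 were called higher and none lower, a share equal to the background of rises, 22.2% of all tested loci. Of the 9 changes, 5 were negative (4 with quantile normalization). XLOC_016764, the last of the run at 37656652 to 37661365, rose 2.09 in log2 units (SE 0.49, limma adjusted p = 0.00948), from 51.5, 21.7 and 92.7 to 204, 204 and 204 normalized counts. XLOC_016759, at 37595275 to 37598308, had 4.36, 0 and 5.98 at day 0 and 22.3, 12.3 and 23.0 at day 6 (2.54, SE 0.75, limma adjusted p = 0.0251). It passed the filter through day 6 alone, and its call was lost without day 6 replicate 1 (limma adjusted p = 0.0834) and without day 6 replicate 3 (limma adjusted p = 0.0865). The 3 multi-exon coding loci in this span were all called higher, with a median change of 1.47. By contrast XLOC_016761, at 37607311 to 37611914, had 73.3, 81.8 and 90.7 against 70.0, 57.4 and 82.5 (-0.24, SE 0.30, limma adjusted p = 0.558).

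On chromosome 9, 4 loci on the plus strand lie within 116 kb from 98743006 to 98858545, and 3 of them were called lower, where the background of falls was 21.8%. XLOC_036828, 3877 nt at 98756900 to 98760776, fell 5.71-fold, from 484, 708 and 418 to 100.4, 67.7 and 114 normalized counts (log2 change -2.50, SE 0.32, limma adjusted p = 0.000536). Its neighbour XLOC_036827, 1059 nt at 98743006 to 98744064, went from 167, 171 and 120 to 36.5, 36.9 and 44.9 (-1.91, SE 0.30, limma adjusted p = 0.00144). XLOC_036829, called at -1.53 (limma adjusted p = 0.0250), has 80.3% of its exonic bases in exons of other loci and is uncertain. The last of the run, XLOC_036832, had a change of -0.31 and did not pass the test. No multi-exon coding locus of the table lies in this span. The calls here numbered 2 with quantile normalization and 2 without any single library other than day 0 replicate 3.

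**Figure D5:**
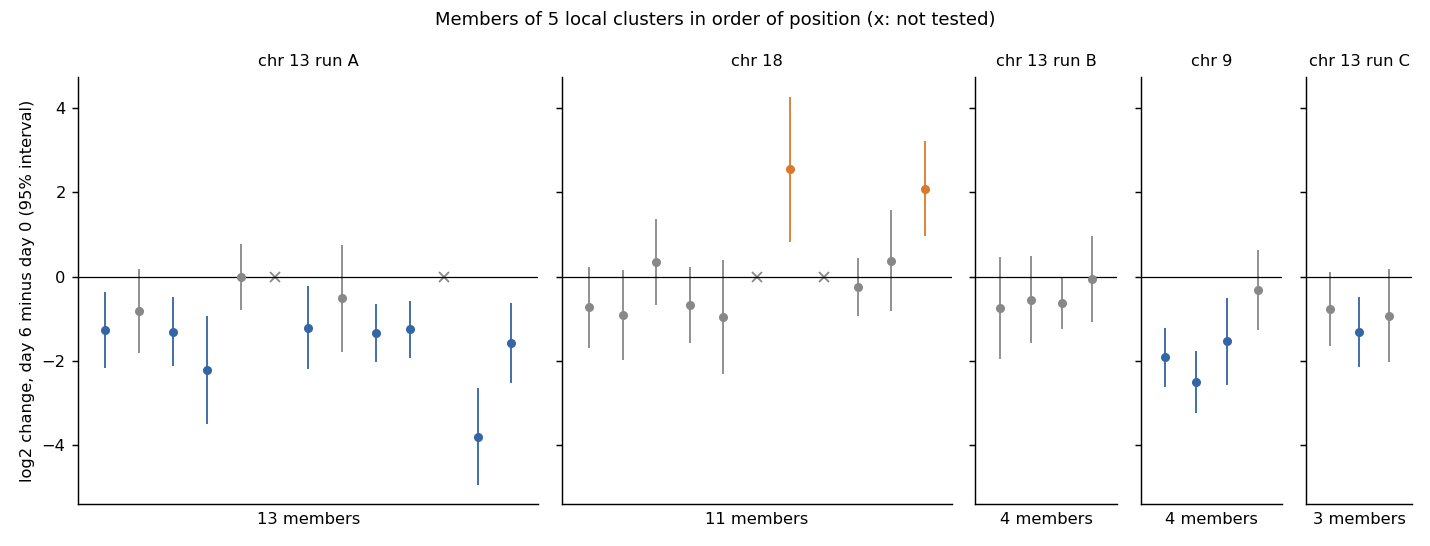
Log2 change from day 0 to day 6 with its 95% interval for the members of the 5 local runs of single-exon coding loci, in order of position, with called loci in colour and untested loci as crosses at 0. In run A on chromosome 13, 8 of 11 tested loci were called lower, and on chromosome 18 2 of 9 were called higher.

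Of the 11 pairs within 100 kb, 7 had both loci tested. In 1 pair both were called, and in the same direction. This is the pair XLOC_018097 and XLOC_018523 on chromosome 19, on opposite strands with 12.7 kb between them. XLOC_018097, 3321 nt at 41904460 to 41907780, went from 384, 439 and 279 to 2031, 1802 and 1282 normalized counts (log2 change 2.21, SE 0.27, limma adjusted p = 0.000387). XLOC_018523, 2158 nt at 41920465 to 41922622, went from 1619, 1187 and 1064 to 3262, 2805 and 2015 (1.06, SE 0.25, limma adjusted p = 0.00907). In both loci replicate 3 was the lowest library of each stage. In 2 other pairs 1 locus was called, and in 4 pairs neither.

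Single-exon loci often lay inside other coding loci. Within the span of a multi-exon coding locus of the table lay 71 of the 287 (24.7%), 37 of them on the same and 36 on the opposite strand, with 2 counted in both. Of 63 such loci tested, 19 were called (30.2%), 11 higher and 8 lower, against a background of 44.0% of all tested loci. On the same strand, 35 pairs of locus and host were tested. Both were called in 6 of these, each time in the same direction, and only the single-exon locus in 5. Over all 35 pairs, called or not, the 2 changes had the same sign in 21. Of the 6 pairs, 3 come from the run on chromosome 18, where XLOC_016759 and XLOC_016764 share the host XLOC_016748 and XLOC_016764 is paired again with XLOC_016763. On the opposite strand, both were called in 4 of 31 pairs, 3 times in the same direction. Counting is not stated to use strand, and how far reads of the host entered these counts was not tested.

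Most single-exon coding loci shared no exonic sequence with another locus of the assembly. None of the exonic bases was shared in 240 of the 287, while 17 shared 10 to 50% and 23 over 50%, and the values of the last group are uncertain. Of these 23, 15 were tested and 5 called, against 44.0% of all tested loci. The longest by merged exonic bases, XLOC_017050 with 35124 nt on chromosome 18 at 32042001 to 32077124, minus strand, shares 39.4% of its bases. It had 1602, 2087 and 2157 normalized counts at day 0 and 1944, 1775 and 1725 at day 6 (log2 change -0.09, SE 0.19, limma adjusted p = 0.717). By exon length, loci of 312 to 1956 nt had 9 called rises and 21 called falls among 82 tested, those of 1960 to 3208 nt had 21 and 21 among 84, and those of 3213 to 35124 nt had 18 and 16 among 84. In all, 36.6, 50 and 40.5% were called, against 44.0% of all tested loci, and 7 of the 21 falls among the shortest exons were those of run A.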

How the data were processed

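RNA was measured in 6 libraries, 3 per stage. The deposited signal per locus is a read count that the authors divided by 1 size factor per library, as read from the values, which were whole multiples of 1 step per library for 100% of values within 0.01 reads. Per the submitters' processing notes, mm9 was the build and DESeq, HTSeq 0.5.4p3, Cufflinks 2.1.1 and TopHat2 2.0.8 were used, with no role or order given. Exon positions, 1-based, came from the authors' deposited assembly.

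Day 6 was compared with day 0 by limma 3.58.1 in R 4.3.3 (trend and robust) on log2(normalized count + 1), a scale that understates changes of low loci, for loci that reached 10 normalized counts in 3 or more libraries. Where 1 library was left out, the filter asked for fewer libraries. Tests were two-sided and adjusted over all 17145 tested loci in the main fit. edgeR 4.0.16 and DESeq2 1.42.0 on the recovered reads were alternatives. On simulated counts for these 17145 loci, limma recovered 32% of loci changed 2-fold and 96% changed 8-fold. Only 50 loci per fold size were changed there, and each locus had the same spread at both stages. These percentages are therefore not the sensitivity of the real comparison, where 7543 loci were called. Named loci are the 5 highest by mean and 3 per kilobase, the 6 largest qualifying rises and falls, the 3 most variable at day 0, the 3 with the smallest change, the largest change in each run, and the longest and shortest exon; others were chosen after their values were seen. Members and lists were chosen with earlier results of these data known. Positions and shares were computed with Python 3.11.15 and pandas 2.3.3. Near-identical copies elsewhere in the genome were not examined, so loci with such copies are uncertain.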

Additional observations from a re-analysis of the deposited data

How the results depend on the processing

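At a minimum of 50 normalized counts, which left fewer loci to test, 69 of 156 tested single-exon coding loci were called, against 106 of 250 in the main fit. Falls went from 58 to 30. Over all loci of the table, calls went from 7543 of 17145 tested to 6319 of 14092. Other alternatives kept the single-exon counts within 1.5 times. With one library left out the filter asked for fewer libraries, and 257 to 265 single-exon loci were tested. Their calls then ran from 76 to 119, rises from 33 to 55 and falls from 43 to 69, while calls over all loci ran from 5264 to 9105. No call was made in the opposite direction in any alternative fit. Labels share replicate numbers, and whether these numbers pair the samples is not settled. The submitters' library names carry other numbers, which differ across the stages between replicates of the same number. The correlations of same-numbered deviations were 0.18, 0.13 and 0.07, and each library correlated best with its own number. Correlations between unlike numbers ran from -0.14 to -0.007. Deviations were taken from the mean of each stage, so positive same-numbered values force the others to be negative on balance. The negative values are therefore not separate evidence of pairing. With the replicate block 110 single-exon loci were called, 50 higher and 60 lower, and 7852 over all loci. With 1 weight per stage for unequal spread 97 single-exon loci were called, with edgeR 106 and with DESeq2 120. Over all loci these fits called 7217, 7493 and 8278.

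The difference in called percentage at like level ran from -9.41 to -2.48 with one library left out. The day 0 SD difference was -0.092 among loci with at most 10% shared bases and 0.032 with quantile normalization, and ran from -0.11 to -0.014 with one library left out. The day 6 SD difference ran from -0.032 to -0.0027. The difference in median log2 change ran from -0.16 to 0.14. The change in the share of counts, -0.15 percentage points, was 0.0051 without the 3 most abundant loci, and ran from -0.19 to -0.10 with one library left out. The runs numbered 5 at gaps of 50, 100 and 200 kb.

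Among 27 named loci tested, directions turned for 4 that were not called. XLOC_024521 was at -0.067 (DESeq2), -0.092 (edgeR), -0.17 (quantile normalization) and from -0.17 to 0.29 with one library left out. XLOC_006788 was at -0.034, -0.057 and -0.15 under the same and from -0.21 to 0.20. XLOC_000136 was at -0.020 (edgeR) and -0.13 (quantile normalization) and from -0.12 to 0.24. XLOC_001498 was from -0.58 to 0.12 with one library left out. The causes were not tested. With 3 libraries a stage, limma recovered 32% of loci simulated with a 2-fold change. That simulation changed only 50 loci per fold size and gave each locus the same spread at both stages. Its settings differ from these data, so this percentage is not the sensitivity here. A missed call still does not show that a locus held its level.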
